A study of Mus musculus with 8 samples.

Results

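The genes described here are 8 heat shock genes and 2 cold-inducible genes in the liver of fasted mice. The heat shock genes are Hspa8, Hsp90aa1, Hsph1, Dnajb1, Hspa1a, Hspa1b, Hspb1 and Hspe1, and the cold-inducible genes are Cirbp and Rbm3. They were taken by gene name from the deposited table of gene counts, in which each name occurs once, and make up 10 of its 45706 genes. RNA was sequenced from the liver of 4 WT and 4 S155A female mice, C57BL/6J, aged 4 months, after an overnight fast, and each mouse gave 1 library. S155A mice (SA/SA) carry a CRISPR-Cas9 edit of Plin5, the gene of the lipid droplet protein perilipin 5, that replaces the phosphorylated serine with alanine in every tissue, and both genotypes had the same chow, housing and fast. The animal numbers in the labels fall under 200 (replicates 1 and 4 of each genotype, the low series) or over 800 (replicates 2 and 3, the high series). What separates the series, such as a date of birth or of harvest, is not given in the sources used here, so each gene was compared between genotypes and between series.

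Heat shock proteins are chaperones that hold, refold or pass on unfolded proteins, and many of their genes are switched on by the transcription factor HSF1, which binds heat shock elements (inverted repeats of the letters GAA) in their promoters. Cirbp and Rbm3 encode small RNA-binding proteins whose RNA rises on mild cooling, the opposite of heat shock. In liver, both kinds of gene are known to follow the daily rhythm of body temperature, in opposite phases.

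Promoter letters were read as a description of these genes, and their part in the values of the mice was not tested. RefSeq promoter windows (build GRCm38.p6, searched over 250 bases before the start site) were given for 7 of the 10 genes, those other than Hspa8, Hsp90aa1 and Rbm3. The shortest form of a heat shock element, TTCNNGAA or GAANNTTC, was searched on both strands. It was present for 5 of the 7 genes (Hsph1, Hspa1a, Hspa1b, Hspb1 and Hspe1). Of all 27025 genes with a window, 14.5% hold it, as do 12.8% of all 32851 windows. Its letters were not in the windows of Dnajb1 and Cirbp. The stretches that hold it are printed in the direction of transcription with the element in capitals, on GRCm38.
Hsph1, chr5:149636351-149636380, reverse strand: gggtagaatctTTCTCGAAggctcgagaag
Hspa1a, chr17:34972242-34972271, reverse strand: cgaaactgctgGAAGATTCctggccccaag
Hspa1b, chr17:34959324-34959353, reverse strand: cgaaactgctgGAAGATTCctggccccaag
Hspb1, chr5:135887796-135887835, forward strand: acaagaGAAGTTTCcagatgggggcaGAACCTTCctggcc
Hspe1, chr1:55088053-55088082, forward strand: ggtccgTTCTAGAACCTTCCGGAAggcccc
The stretch of Hspa1a and that of Hspa1b are the same letters at the same place, with the element at -104 from each start site, and the whole promoter windows of this gene pair were 98.7% identical. Hspb1 had 2 separate elements, and Hspe1 had 3 that overlap and together make a longer run. That run holds 2 overlapping copies of a form with 3 units in a row at the same spacing. The 3-unit form was in 0.466% of windows, and runs longer than it were not counted. The Hspe1 stretch also lies in an annotated exon of Hspd1, its chaperonin partner gene, which is transcribed the other way, and 26 of the 30 bases of the Hsph1 stretch lie in an annotated Hsph1 exon. For Cirbp, the cold-response octamer TCCCCGCC, which overlaps with no other motif searched, was found with its first base at -247 from 1 of its 2 start sites, inside the gene but in no exon.
Cirbp, chr10:80167589-80167610, forward strand: ctgTCCCCGCCtcctagtcgct
On both strands the octamer is in 4.64% of windows, those of Hspa1a and Hspa1b among them. A match of letters is a description of the window and not evidence that a factor binds there.

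Counts per library ranged from 39709785 to 54540864, and 14629 genes passed edgeR's filter on low counts, among them all 10 genes described here. Values are CPM, counts relative to the TMM-scaled library total, and tests are edgeR's quasi-likelihood test with Benjamini-Hochberg adjustment over the 14629 genes, beside an exact permutation test (two-sided) on mean log2 CPM, which in groups of 4 cannot give a p below 0.0286. Nothing says that the mice of a group came from separate litters or cages, so the spread is that between these 8 mice. The labels name hepatocytes as the cell type, and 9 of 10 hepatocyte markers were in the table and summed to between 96000 and 133000 CPM, while markers of Kupffer, endothelial and stellate cells summed to between 109 and 432 CPM and were thus present too. In such bulk samples fewer cells of a type and less RNA per cell cannot be told apart. S155A mouse 3 stood apart with 2080 CPM of lymphocyte and plasma cell markers against 20.1 to 47.2 CPM in the others, and WT mouse 2 had 38.5 CPM of pancreatic acinar markers against 4.27 to 6.58 CPM. WT mouse 4, which was the lowest of all for Hsph1, Dnajb1, Hspa1a and Hspa1b and the highest for Cirbp, was also the highest for summed markers of red blood cells (2650 CPM against 411 to 1460), endothelial cells (243 against 135 to 187) and stellate cells (318 CPM), and their part in the results was not tested. Plin5 itself was at 206 ± 32.3 CPM in WT mice and 328 ± 118 CPM in S155A mice (SD, n = 4). S155A mouse 3, at 192 CPM, lay inside the WT range. Its log2 fold change, S155A minus WT, was 0.67 with an SE of 0.24 (unadjusted p = 0.0193, edgeR's adjusted p = 0.993, exact permutation p = 0.114). In mean log2 CPM this was 0.92 in the low and 0.29 in the high series. Between the series Plin5 was at -0.55 (unadjusted p = 0.0106, edgeR's adjusted p = 0.262). The edit changes a codon of Plin5 and is no knockout.

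Levels of the 10 genes covered a wide range in these livers. Per kilobase of the main transcript, the scale on which genes can be compared with each other, Hspa8 stood first at 1044 ± 177 CPM per kb (SD, n = 8 mice). Hspa8 (chr9:40800984-40810087, forward strand of GRCm38) encodes HSC70, the constitutive cytosolic HSP70. Hspe1 (chr1:55088132-55091307, forward), which encodes the HSP10 lid of the mitochondrial chaperonin, followed at 180.9 ± 22.3 CPM per kb. Hsp90aa1 (chr12:110690605-110702728, reverse), the gene of the inducible cytosolic HSP90, was at 66.2 ± 9.92 CPM per kb, and the ranges of these first 3 genes over mice did not overlap. Next came Hspb1 (chr5:135887919-135889563, forward), the small heat shock protein HSP25, at 36.0 ± 13.5 CPM per kb, a range that overlapped those of Hsp90aa1 and Hsph1.
Below it, 5 genes overlapped each other in range. They were Hsph1 (chr5:149614287-149636376, reverse), an HSP110 nucleotide exchange factor of HSP70, at 22.7 ± 5.74 CPM per kb, and Hspa1b (chr17:34956436-34959238, reverse), a gene of the stress-inducible HSP70, at 21.2 ± 10.9. Rbm3 (chrX:8138975-8145880, reverse) was at 18.2 ± 3.92 CPM per kb and Cirbp (chr10:80165985-80172786, forward) at 16.6 ± 4.63. Dnajb1 (chr8:83608193-83612653, forward), an HSP40 that feeds clients to HSP70, was at 11.9 ± 2.11 CPM per kb. Hspa1a (chr17:34969190-34972156, reverse), the other gene of the inducible HSP70, was last at 0.612 ± 0.392 CPM per kb. It lies 9951 bases from Hspa1b, and the coding sequences of both are 99.4% identical.

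Near-identical copies limit what some of these counts mean. Of the 31-base words in annotated transcripts, 65.4% of those of Hspa1a and 68.0% of those of Hspa1b were also found in another gene, mainly in each other, so their counts were divided by salmon's model and each is uncertain on its own. Hspa8, Hsp90aa1 and Hspb1 shared 43.5%, 51.4% and 52.3% of their words with other genes, mainly pseudogenes. The closest such copy of each reached at most 21.3 CPM (Gm15459), 1.28 CPM (Gm12346) and 0.672 CPM (Hsp25-ps1) in any mouse. Hspe1 shared 24.8% and Rbm3 9.75%, while Dnajb1 shared 0.412% and Hsph1 and Cirbp shared none. Hspe1 also overlaps Hspd1 and Rbm3 overlaps Rbm3os, each on the opposite strand, and Hspa1a overlaps Gm20481, and whether strand was used in the counting is not given in the sources used here.

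None of the 10 genes differed between S155A and WT mice at an adjusted p under 0.05, and in none did the 4 mice of one genotype lie wholly above or below those of the other. Over all 14629 genes, 0% were called and 2.3% had groups that did not overlap. Log2 fold changes of the 10 genes lay between -1.13 and 0.41, with 5 of 10 above 0 and a median of 0.03 beside -0.01 for all genes, of which 48.8% were above 0. At an unadjusted p under 0.05, 497 genes (3.4%, of which 1.42% higher and 1.98% lower) passed with edgeR, 1 of these 10 among them and lower, and DESeq2 called 6 genes and none of the 10. All adjusted p of the 10 genes were 0.993 or more by edgeR's quasi-likelihood test.

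**Figure D1:**
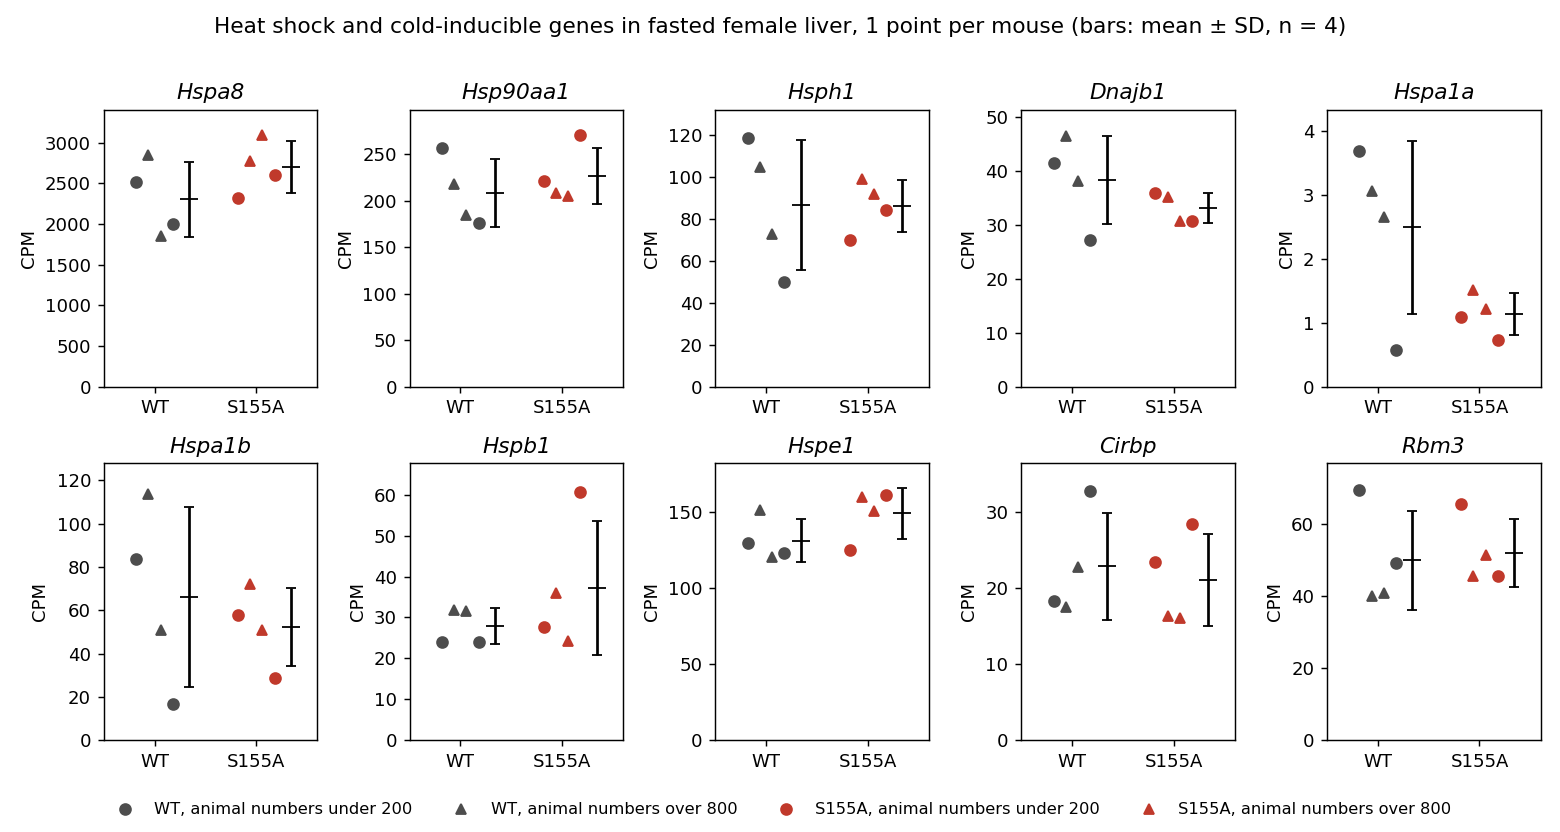
CPM of each of the 10 genes in each of 8 mice, 1 panel per gene with its own axis from 0. WT is grey and S155A red, circles are animal numbers under 200 and triangles over 800, and bars give the mean ± SD of 4 mice. WT and S155A points overlap in every panel, and Hspa1a and Hspa1b have the widest spread.

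Hspa8, the most abundant of them, was at 2511, 2851, 1852 and 1994 CPM in WT mice 1 to 4 and at 2323, 2774, 3088 and 2607 CPM in S155A mice 1 to 4. WT mice 3 and 4 were the lowest, while WT mouse 2 was above 3 of the 4 S155A mice. The log2 fold change was 0.23 with an SE of 0.16 (edgeR's adjusted p = 0.993, exact permutation p = 0.2). As the difference in mean log2 CPM of 2 mice against 2, it was 0.14 for low and 0.35 for high animal numbers.

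Hspa1b and Hspa1a, the inducible HSP70 genes, varied more between mice than the genotypes differed. Hspa1b was at 83.6, 113.6, 50.7 and 16.8 CPM in WT mice 1 to 4, a range that took in all 4 S155A mice, which were at 58.0, 72.0, 51.0 and 28.8 CPM. In each genotype mouse 4 was the lowest and WT mouse 2 was the highest of all. The log2 fold change was -0.33 with an SE of 0.48 (edgeR's adjusted p = 0.993, exact permutation p = 0.914).
Hspa1a, with counts of only 29 to 198 per library, was at 3.69, 3.07, 2.65 and 0.572 CPM in WT mice and at 1.09, 1.51, 1.21 and 0.732 CPM in S155A mice. WT mice 1 to 3 lay above every S155A mouse and WT mouse 4 below every one. It was the 1 gene of the 10 with an unadjusted p under 0.05 (p = 0.042), with a log2 fold change of -1.13, an SE of 0.49 and an adjusted p of 0.993 by edgeR, and the exact permutation p was 0.229. When both genes were summed, which does not depend on how reads were divided between them, the level was 68.7 ± 42.9 CPM in WT and 53.6 ± 18.3 CPM in S155A mice (SD, n = 4). For the sum the log2 fold change was -0.36 with an SE of 0.48 (edgeR's adjusted p = 0.993).

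The cochaperones of HSP70 did not pass the test either. Hsph1 was at 118.6, 104.4, 72.9 and 49.98 CPM in WT mice and at 70.02, 99.1, 91.5 and 84.3 CPM in S155A mice, so that the S155A mice lay inside the WT range. Its means were 86.5 ± 30.9 and 86.2 ± 12.4 CPM (SD, n = 4), and the log2 fold change was 0.00 with an SE of 0.24.
Dnajb1 was at 41.5, 46.6, 38.1 and 27.2 CPM in WT mice and at 35.9, 35.2, 30.8 and 30.7 CPM in S155A mice. Again WT mouse 4 was the lowest of all and WT mice 1 to 3 the highest, the same order of the groups as for Hspa1a. The log2 fold change was -0.21 with an SE of 0.16 (edgeR's adjusted p = 0.993, exact permutation p = 0.314). As the difference in mean log2 CPM, S155A minus WT was -0.02 in the low and -0.36 in the high series.

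Hsp90aa1 was at 256.1, 217, 184 and 176 CPM in WT mice and at 221, 208, 205 and 270.5 CPM in S155A mice, with the highest and the next highest mouse in different genotypes. Its log2 fold change was 0.12 with an SE of 0.15 (edgeR's adjusted p = 0.993). Hspe1, which works with HSPD1 in folding proteins in the mitochondrial matrix, was the least variable gene of the 10. It was at 129.5, 151, 120.4 and 123 CPM in WT mice and at 125, 159.8, 150.2 and 161 CPM in S155A mice. Here 3 S155A mice were near or above the highest WT mouse and 1 was among the others, and the log2 fold change was 0.19 with an SE of 0.12 (edgeR's adjusted p = 0.993, exact permutation p = 0.143).
Hspb1, a small heat shock protein that binds unfolded proteins without ATP, was at 24.0, 31.9, 31.6 and 24.0 CPM in WT mice and at 27.7, 36.0, 24.3 and 60.7 CPM in S155A mice. S155A mouse 4 stood alone at the top, and the other 3 S155A mice were close to the WT range. The log2 fold change was 0.41 with an SE of 0.26 (edgeR's adjusted p = 0.993), and without S155A mouse 4 it was 0.07. As the difference in mean log2 CPM, S155A minus WT was 0.77 within the low series, which holds that mouse, and -0.11 within the high series. The interaction, estimated by edgeR's own model, was -0.96 with an SE of 0.46 (unadjusted p = 0.068, edgeR's adjusted p = 0.485). No gene of the 10 passed the interaction test at an adjusted or an unadjusted p under 0.05, where 0% and 11.1% of all genes did, and DESeq2 called 285 genes and none of the 10.

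Cirbp and Rbm3 did not differ between the genotypes beyond their spread. Cirbp averaged 22.8 ± 7.02 CPM in WT and 21.0 ± 5.99 CPM in S155A mice (SD, n = 4), which differed by -0.12 on the log2 scale with an SE of 0.24 (edgeR's adjusted p = 0.996). Rbm3 averaged 49.8 ± 13.7 and 51.9 ± 9.46 CPM, a log2 fold change of 0.06 with an SE of 0.19 (edgeR's adjusted p = 0.996).

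Between the animal number series, Cirbp and Rbm3 were the only genes of the 10 with an unadjusted p under 0.05, both at lower means in the high series, and neither passed after adjustment. None of the 10 was called where 0% of all genes were, and none had series that did not overlap, where 6.85% of all genes did. An unadjusted p under 0.05 was reached by 12.8% of all genes (1877), 6.64% higher and 6.19% lower, beside 0 of the 10 higher and 2 lower. Log2 fold changes of the 10 had a median of 0.13 beside 0.00 for all genes (-0.004452), and 6 of 10 were above 0 beside 49.2%. DESeq2 called 408 genes and none of the 10.

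**Figure D2:**
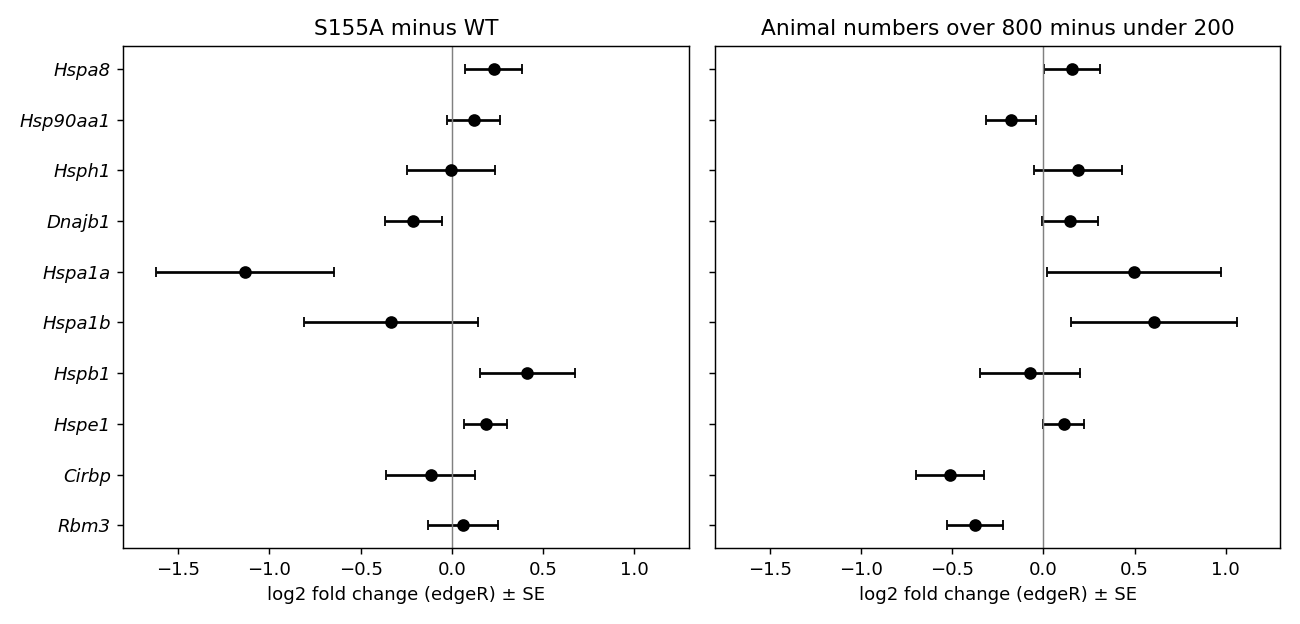
Log2 fold change from edgeR of each of the 10 genes with bars of 1 SE, for S155A minus WT at the left and for animal numbers over 800 minus under 200 at the right, both from 8 mice. At the left Hspa1a is farthest from 0 at -1.13, and at the right Cirbp at -0.51 and Rbm3 at -0.37 are the farthest from 0 in units of their SE.

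Cirbp was at 18.3 CPM in WT mouse 1, 32.8 in WT mouse 4, 23.5 in S155A mouse 1 and 28.4 in S155A mouse 4, the low series. In the high series it was at 17.5 CPM in WT mouse 2, 22.7 in WT mouse 3, 16.3 in S155A mouse 2 and 16.0 in S155A mouse 3. The 3 highest mice were all of the low series, but WT mouse 1 lay within the range of the high series. Means were 25.7 ± 6.25 and 18.1 ± 3.13 CPM (SD, n = 4), and the log2 fold change was -0.51 with an SE of 0.19 (unadjusted p = 0.0221, edgeR's adjusted p = 0.303, exact permutation p = 0.0571). High minus low in mean log2 CPM, it was -0.30 in WT and -0.67 in S155A mice.
Rbm3 was at 69.3 CPM in WT mouse 1, 49.1 in WT mouse 4, 65.5 in S155A mouse 1 and 45.4 in S155A mouse 4 of the low series. It was at 40.0, 40.7, 45.5 and 51.2 CPM in the mice of the high series, in the order WT mouse 2, WT mouse 3, S155A mouse 2 and S155A mouse 3. In both genotypes mouse 1 had the highest value, whereas Cirbp was highest in mouse 4 of both genotypes. Means were 57.3 ± 11.9 and 44.4 ± 5.17 CPM (SD, n = 4), with a log2 fold change of -0.37 and an SE of 0.16 (unadjusted p = 0.0385, edgeR's adjusted p = 0.357, exact permutation p = 0.143). In mean log2 CPM, high minus low was -0.53 in WT and -0.18 in S155A mice. When each of the 8 mice was left out in turn, the unadjusted p stayed under 0.05 in 3 fits for Cirbp (without WT mouse 1, WT mouse 3 or S155A mouse 1) and in 3 for Rbm3 (without WT mouse 4, S155A mouse 3 or S155A mouse 4).

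Among heat shock genes, log2 fold changes between the series ran from -0.18 for Hsp90aa1 (SE 0.14) to 0.61 for Hspa1b (SE 0.46), with adjusted p from 0.615 to 0.94 by edgeR. Hspa1b averaged 46.8 ± 30.04 CPM in the low and 71.8 ± 29.6 CPM in the high series (SD, n = 4), and the ranges of 16.8 to 83.6 and 50.7 to 113.6 CPM overlapped. Hspa1a had a log2 fold change of 0.50 with an SE of 0.48, and the summed HSP70 genes one of 0.60 with an SE of 0.46 (edgeR's adjusted p = 0.617). Hspa8 was at 0.16, Hsph1 at 0.19, Dnajb1 at 0.15, Hspe1 at 0.11 and Hspb1 at -0.08. WT mouse 1 of the low series weighed on these values: without it Hsph1 was at 0.50 (unadjusted p = 0.0161), Hspa1a at 1.21 (unadjusted p = 0.0228) and Hspa1b at 1.14 (unadjusted p = 0.0414), with adjusted p of 0.212 to 0.306 by edgeR. Leaving out each mouse in turn gave 0.00613 to 0.501 for Hsph1, 0.163 to 1.21 for Hspa1a and 0.286 to 1.14 for Hspa1b, the lowest of each without WT mouse 4.

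Circadian clock genes also had other means in the high than in the low series, and their part in the results on Cirbp and Rbm3 was not tested. Of 16 clock genes tested, none passed after adjustment, while 9 had higher and 4 lower means in the high series at an unadjusted p under 0.05, beside 6.64% and 6.19% of all genes. Dbp, a clock output transcription factor, had a log2 fold change of 2.99 with an SE of 0.39 (edgeR's adjusted p = 0.0618), and Arntl, the core clock activator BMAL1, one of -2.21 with an SE of 0.40 (edgeR's adjusted p = 0.108). Arntl was at 8.26, 1.81, 4.88 and 16.0 CPM in WT mice 1 to 4 and at 8.56, 2.75, 1.61 and 17.4 CPM in S155A mice 1 to 4, and Cirbp followed nearly the same order of mice. The levels of Arntl, like those of Dbp, did not overlap between the series, so no r is given over the pooled mice, and 4 mice per series are too few for one within a series. With the series means taken out, which leaves a description over 8 mice with no test, Cirbp had an r of 0.821 with Arntl and of -0.933 with Dbp, and Rbm3 had the opposite signs, -0.731 with Arntl and 0.811 with Dbp. By the same measure the heat shock genes ran from -0.716 (Hspa8) to 0.48 (Hspb1) with Arntl. With Dbp they ran from -0.455 (Hspb1) to 0.794 (Hspa1b), so r of this size were not particular to Cirbp and Rbm3. Arntl and Dbp were taken up after the values of these data were seen.

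Mouse-to-mouse spread differed widely between the 10 genes. The SD of log2 CPM over all 8 mice was 0.88 for Hspa1b, larger than in 99.0% of the 7438 genes with a mean of at least 10 CPM, whose median SD was 0.19. It was 0.95 for Hspa1a, which is too low in count to be set beside those genes. The highest mouse exceeded the lowest 6.45-fold for Hspa1a and 6.77-fold for Hspa1b. Hspb1 followed at 0.45, Hsph1 at 0.39, Cirbp at 0.38 and Rbm3 at 0.29. The other 4 were nearer to the middle of those genes, with 0.26 for Hspa8, 0.25 for Dnajb1, 0.21 for Hsp90aa1 and 0.18 for Hspe1, which exceeded 45.9% of them.

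Pairs of heat shock genes had mostly positive r over the 8 mice, with exceptions among the pairs of Hspb1 and Hspe1. All 15 pairs of Hspa8, Hsp90aa1, Hsph1, Dnajb1, Hspa1a and Hspa1b had a positive Pearson r of log2 CPM over the 8 mice, from 0.107 to 0.914, and 5 of the 15 had an exact permutation p under 0.05. Each of these 5 pairs holds Hspa1a or Hspa1b, whose counts salmon's model divided between near-identical genes, so they are not 5 separate results. Shares of positive r and of such p among pairs of all genes were not computed. The 6 genes were grouped with earlier results known, which left out Hspb1 and Hspe1. With Hspb1, also a cytosolic chaperone, r was -0.0721 for Dnajb1, -0.234 for Hspa1a and -0.125 for Hspa1b. It was 0.507 for Hsp90aa1, 0.142 for Hspa8 and 0.126 for Hsph1. With Hspe1, r for the 6 genes ran from -0.0968 for Hspa1a to 0.827 for Hspa8. Over the 45 pairs of the 10 genes, 8 had an exact permutation p under 0.05 and none kept an adjusted p under 0.05. Dnajb1 and Hspa1a had the highest r, 0.914 (exact permutation p = 0.00223, adjusted 0.0502), with a rho of 0.905 (exact permutation p = 0.00456, adjusted 0.196). Dnajb1 and Hspa1b had an r of 0.901 (exact permutation p = 0.00211, adjusted 0.0502) and a rho of 0.833 (exact permutation p = 0.0154, adjusted 0.196). Without WT mice 2 and 4, the mice farthest from the median of Dnajb1, these r were 0.889 and 0.739. Hsph1 and Hspa1b had an r of 0.821 (exact permutation p = 0.0128, adjusted 0.0853) and a rho of 0.81 (exact permutation p = 0.0218, adjusted 0.196), which was 0.517 as r without WT mice 4 and 1, so that much of it rests on these mice.

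**Figure D3:**
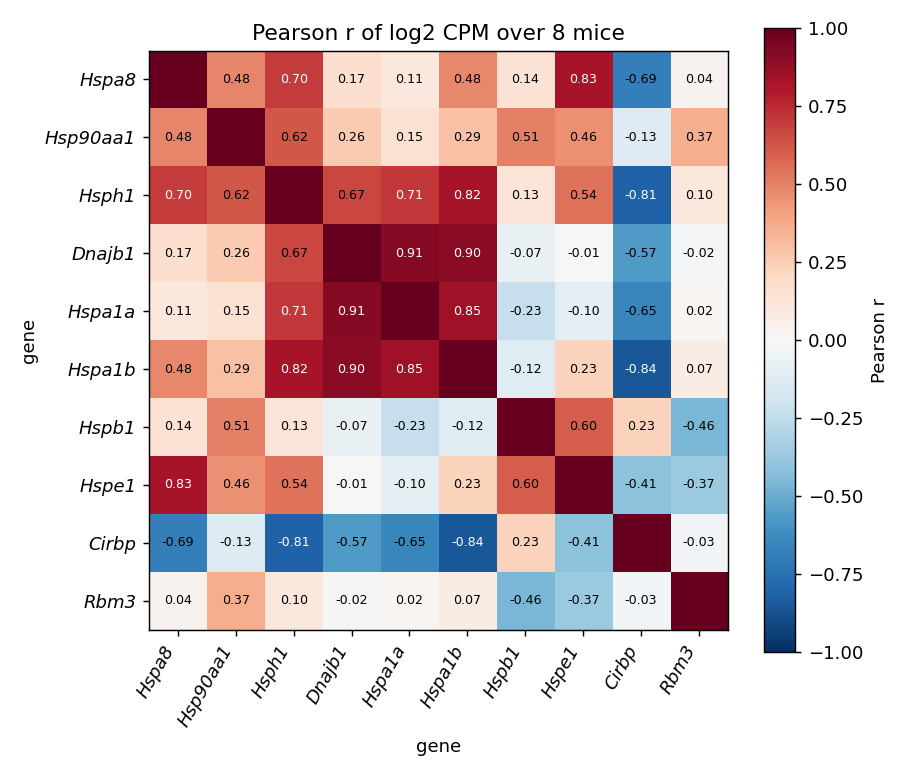
Pearson r of log2 CPM over 8 mice for each pair of the 10 genes, printed in each square and coloured from -1 (blue) to 1 (red). The block from Hspa8 to Hspa1b is positive throughout, and the Cirbp row is negative against all 6 of these genes while the Rbm3 row is near 0 or weakly positive.

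The abundant chaperone Hspa8 and the mitochondrial Hspe1 had an r of 0.827 (exact permutation p = 0.0106, adjusted 0.0853) and a rho of 0.762 (exact permutation p = 0.0368, adjusted 0.276), and r was 0.677 without WT mice 3 and 4. Hspe1 did not go with the inducible genes, with an r of -0.097 against Hspa1a and 0.225 against Hspa1b. Hspb1 had its highest r with Hspe1 (0.603, exact permutation p = 0.0837).

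Cirbp had negative r with most heat shock genes and Rbm3 did not, and none of these r passed after adjustment. All 6 r of Cirbp with Hspa8, Hsp90aa1, Hsph1, Dnajb1, Hspa1a and Hspa1b were negative, from -0.845 to -0.128, and 2 of these had an exact permutation p under 0.05. The weakest was that with Hsp90aa1 (rho 0.0476), which was highest in S155A mouse 4, the mouse next to the top for Cirbp, and Hspb1 had an r of 0.234 with Cirbp. The r with Hspa1b was -0.845 (exact permutation p = 0.00645, adjusted 0.0725) and rho was -0.643 (exact permutation p = 0.0962, adjusted 0.393). Without WT mice 4 and 2, which had the lowest and highest Hspa1b, r was -0.719, and after the series means were taken out it was -0.803. With Hsph1 the r was -0.811 (exact permutation p = 0.0133, adjusted 0.0853) and rho -0.69 (exact permutation p = 0.0694, adjusted 0.347), and r was -0.685 without WT mice 4 and 1. Of the 6 r of Rbm3 with the same genes 5 were positive, from -0.018 to 0.367. After the series means were taken out, these 6 ran from 0.148 with Hsp90aa1 to 0.573 with Hspa1b, a description with no test. Rbm3 had an r of -0.46 with Hspb1 and of -0.369 with Hspe1. Cirbp and Rbm3 had an r of -0.029 with each other (exact permutation p = 0.943) and a rho of 0. After the series means were taken out r was -0.819, with Cirbp highest in mouse 4 and Rbm3 in mouse 1 of each genotype, so the pooled value does not describe the mice of a series.

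**Figure D4:**
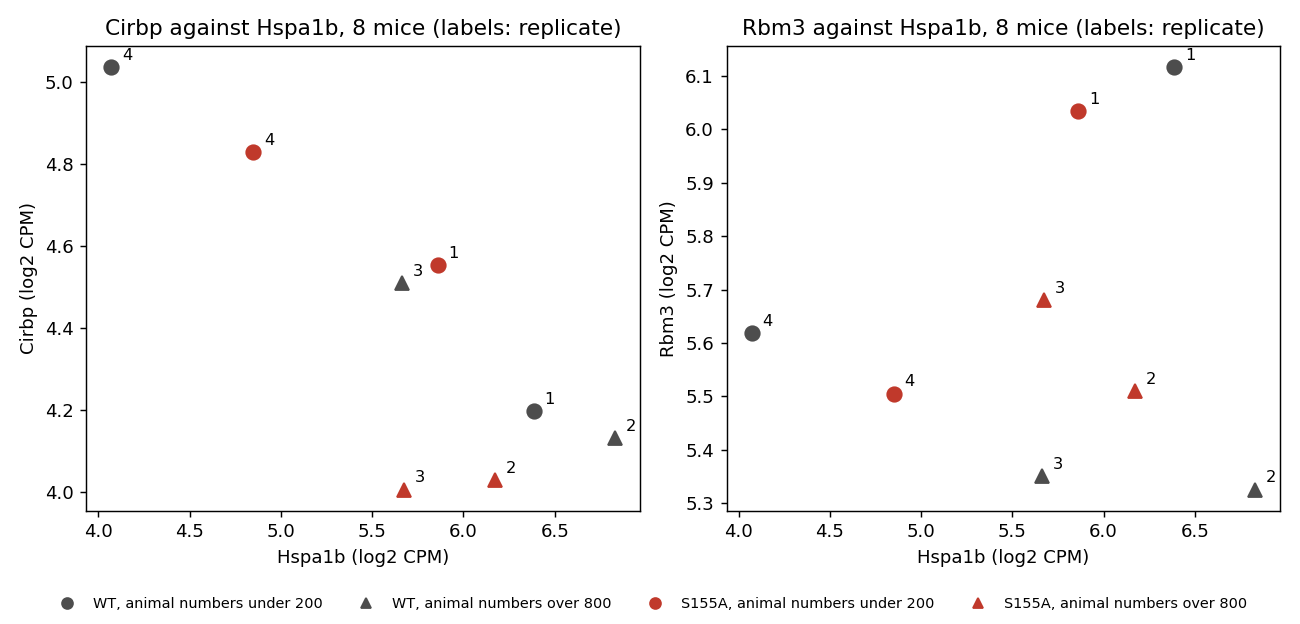
Log2 CPM of Cirbp (left) and Rbm3 (right) against log2 CPM of Hspa1b in 8 mice, with WT grey, S155A red, circles for animal numbers under 200, triangles for over 800 and the replicate number beside each point. At the left the points fall from WT mouse 4 at the top to the high series and WT mouse 1 at the bottom right (r = -0.845), and at the right the pooled points show no slope (r = 0.0741). After the series means were taken out, r was -0.803 at the left and 0.573 at the right.

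Outside the 10 genes, those whose log2 CPM over the 8 mice was most like the mean z-score of the same 6 heat shock genes were Top1 (r = 0.971), Uqcrc2 (0.959), Lipg (0.951) and Gm26588 (0.946), out of 7429 genes searched. For the mean z-score of Cirbp and Rbm3 these were Gsr (0.972), Ctif (0.954), Otud4 (0.951) and Gtf2b (0.939). These r were picked as the highest of 7429 over 8 mice and are given as a description with no test. Cirbp and Rbm3 did not vary together (r = -0.029, and -0.819 with the series means taken out), so their mean z-score describes neither gene alone. Both had lower means in the high series, as did the 4 genes, at log2 fold changes of -0.526 (Otud4) to -0.175 (Gsr).

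Other genes of the chaperone network, in 8 lists of related families, had no call in either contrast. The heat shock factor genes and their regulators (5 of 6 tested) had medians of 0.03 between genotypes and 0.02 between series. Hsf1, the main activator, was at a log2 fold change of 0.13 with an SE of 0.13 between genotypes (edgeR's adjusted p = 0.993). Between series Hsf4 was at 0.516 with an SE of 0.225 (unadjusted p = 0.0465, edgeR's adjusted p = 0.38). Other members of the HSP70 and HSP110 families (10 of 11 tested) had medians of -0.09 and 0.05, and Hspa5, the chaperone BiP of the endoplasmic reticulum, was at 0.56 with an SE of 0.34 in S155A against WT mice (edgeR's adjusted p = 0.993).
Among 27 genes of J-domain proteins, the family of Dnajb1, Dnajc1 was at 0.35 (unadjusted p = 0.043) and Dnajb4 at -0.31 (unadjusted p = 0.0221) between genotypes, both at an adjusted p of 0.993 by edgeR. All 14 genes of the TRiC/CCT chaperonin and prefoldin, which fold actin and tubulin, had a log2 fold change above 0 in S155A mice, beside 48.8% of all genes. Their median was 0.09 and none had an unadjusted p under 0.05. Whether these 14 genes vary independently of each other was not tested, so they are not 14 separate results. In the series contrast 7 of the 14 were above 0, and 2 were higher at an unadjusted p under 0.05, beside 6.64% of all genes.
Between the series, HSP90 and its cochaperones (16 tested) had 3 genes higher and 1 lower at an unadjusted p under 0.05, where 6.64% of all genes were higher and 6.19% lower. Of these Fkbp4, a cochaperone of steroid receptors, was at 0.53 with an SE of 0.14 (unadjusted p = 0.00487, edgeR's adjusted p = 0.214). Of 10 nucleotide exchange factors and BAG proteins 2 were lower at an unadjusted p under 0.05, beside the same 6.19%, with Bag5 at -0.29 (edgeR's adjusted p = 0.3). Among 8 mitochondrial chaperones and proteases, Clpx, the unfoldase of the matrix protease ClpXP, was at -1.21 with an SE of 0.24 (unadjusted p = 0.000736, edgeR's adjusted p = 0.147), between 72.2 and 287 CPM over the mice. The small heat shock protein genes other than Hspb1 (4 of 7 tested) had medians of 0.08 and 0.19 with none at an unadjusted p under 0.05.
Immediate early genes, which respond to handling and other acute stimuli, had 13 tested and none called. Between the series Zfp36 was at 0.65 (unadjusted p = 0.0232) and Fosl2 at -0.69 (unadjusted p = 0.0327), both at an adjusted p above 0.3 by edgeR, and the list's medians were -0.01 between genotypes and 0.00 between series.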

How the data were processed

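Liver RNA of 4 WT and 4 S155A mice was sequenced as stranded mRNA libraries read in 100 bp pairs. The deposited values are estimated counts for each gene, which the authors made with salmon and length-scaled but did not normalize for library size. The submitters' processing notes name bcl2fastq, STAR, SAMtools, MultiQC, DESeq2 and the build GRCm38. The salmon version, the annotation and the use of strand are not given in the sources used here. Length scaling can move a gene's count where isoforms differ between mice.

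The estimated counts were rounded, filtered with filterByExpr, normalized with TMM and tested by quasi-likelihood with edgeR 4.0.16 (R 4.3.3), S155A minus WT (no covariate), high minus low animal numbers (with genotype) and their interaction. The adjusted p threshold was 0.05. Log2 CPM used a prior count of 2, and SEs came from the F statistic. Correlations were Pearson and Spearman with exact permutation of 8 mice. Coordinates and transcripts are of GENCODE M21, and promoter windows of RefSeq. The tests were run on simulated data, with 50 genes changed at each fold. The simulated counts held no series difference, and their spread was estimated with genotype and series in the model. The genotype test has no series term, so its recovery in these data may be lower than in the simulation. At 2-fold, 27 of 50 were called between genotypes, 28 between series and 1 for the interaction. At 1.5-fold these were 15, 11 and 0, so changes of these sizes can be missed. Unchanged genes called were 8, 10 and 13 in the same order. No libraries were copies, the most alike pair differing by a chi-square of 41.7 per gene.

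The genes and lists were chosen with earlier results of these data known. Genes named were the 10, Plin5, the 4 most alike in pattern, and some of the genes with the smallest p in a direction of their list. Others with the smallest p in a list are not named. Alternatives were DESeq2 1.42.0, limma-voom (limma 3.58.1), other scalings and filters, a robust fit, blocks, the summed HSP70 genes and leaving out each mouse. Marker lists of cell types were summed and not tested. Red blood cell markers summed to between 411 and 2650 CPM and cholangiocyte markers to between 27.2 and 85.5 CPM.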

Additional observations from a re-analysis of the deposited data

How the results depend on the processing

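For the 10 genes, 160 of 172 values between genotypes and 160 of 162 between series kept their direction, and none crossed the threshold, with lowest adjusted p of 0.798 and 0.0672. For the interaction 130 of 152 did, and 1 crossed it: without a filter on low counts Hspb1 was called at -0.965 (adjusted p = 0.00625), which made 1 of the 10 called, and the cause was not tested. Counts of all genes called, 0 in each test by edgeR as reported, depended on the tool. DESeq2 gave 6 between genotypes, 408 between series and 285 for the interaction. No filter gave 514 between series and 765 for the interaction, limma-voom 1 for the interaction, and no genotype term 12 between series. Leaving out 1 mouse gave 0 to 111 between series (111 without WT replicate 3, 1 without S155A replicate 2 or 4) and 0 to 40 for the interaction (40 without WT replicate 4, 5 without S155A replicate 2, 1 without WT replicate 3).

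Reversed values were all of genes that were not called. Hsph1 between genotypes was 0.0621 with limma-voom, 0.000378 with the stricter filter and 0.0627 with the replicate block. In the interaction Hspa1a was -0.338 with limma-voom, -0.0257 with library size alone and -0.195 when summed with Hspa1b, and Hspe1 was -0.133 with library size alone, which moved the median of all genes by that test to -0.16. Leaving out 1 mouse gave ranges between genotypes of -0.194 to 0.192 for Hsph1, -0.655 to 0.0598 for Hspa1b, -0.295 to 0.11 for Cirbp and -0.0724 to 0.266 for Rbm3, and between series of -0.194 to 0.289 for Hspb1. In the interaction they were -0.0903 to 0.532 for Hspa8, -0.437 to 0.103 for Hsp90aa1, -0.517 to 0.725 for Hsph1, -1.73 to 0.946 for Hspa1a, -1.78 to 0.53 for Hspa1b, -0.161 to 0.211 for Hspe1 and -0.816 to 0.0272 for Cirbp. Between series Cirbp stayed between -0.698 and -0.366 and Rbm3 between -0.507 and -0.238.

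Whether the replicate numbers pair the mice was not settled. Over all genes, deviations of same-numbered mice correlated at 0.056, 0.166, -0.111 and 0.129, beside -0.194 to 0.14 for mice of different numbers. Yet Cirbp was highest in mouse 4 and Rbm3 in mouse 1 of each genotype. With the replicate block 0 genes were called between genotypes, none of the 10 among them, and 579 had an unadjusted p under 0.05. A block cannot be put beside the series, which is fixed by the number. Hspa1a, at 29 counts in its lowest library, is limited by depth and by its near-identical copy.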

Other observations

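The share of the summed Hspa1a and Hspa1b count that was assigned to Hspa1a did not overlap between the genotypes, a comparison made after the values were seen. It was 4.23%, 2.63%, 4.97% and 3.30% in WT mice 1 to 4, and 1.85%, 2.05%, 2.32% and 2.48% in S155A mice 1 to 4. The means were 3.78% ± 1.03 and 2.18% ± 0.279 (SD, n = 4). No p is given, since groups chosen because they do not overlap fix it. The sums behind these shares were between 879 and 5855 counts per mouse, and the division between genes that are 99.4% identical in coding sequence was made by salmon's model, whose part in this difference was not tested.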
